A study of Mus musculus with 6 samples.

Results

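The genes of oxidative phosphorylation were examined in LSK cells, the Lin- Sca-1+ c-Kit+ fraction of bone marrow that holds hematopoietic stem and progenitor cells. They were taken as the protein-coding rows of the deposited expression table named after the Nduf, Sdh, Uqcr, Cox4 to Cox8 and Atp5 subunit families, together with the protein-coding genes of mitochondrial DNA. The rule found 100 of 55487 rows, of which 87 are nuclear and 13 are mitochondrially encoded. By complex, the nuclear rows comprised 36 of complex I, 4 of complex II, 8 of complex III, 21 of complex IV and 18 of complex V. The mitochondrially encoded rows comprised 7, 1, 3 and 2 of complexes I, III, IV and V. A further 39 rows share these names but are annotated as mitochondrial tRNA or rRNA or as pseudogenes, and were not members. Ndufb1-ps and Cox5b-ps have pseudogene names but are annotated as protein-coding, and were kept as nuclear members. Both were higher in Tespa1-/-, with log2 fold changes of 0.83 and 0.85.

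RNA-seq had been performed on 3 Tespa1+/+ (wild type) and 3 Tespa1-/- samples, all from irradiated mice. Per the study's methods, LSKs were collected at day 13 after 5.0 Gy total body irradiation from male mice aged 8 to 10 weeks, and the null allele B6.129S-Tespa1tm1Smoc had been backcrossed to C57BL/6 for more than 6 generations. The deletion is carried by the whole mouse and is not limited to LSKs, and no unirradiated group was used here. The sources used here do not give how many mice stand behind each sample, so p-values measure only the spread between these samples, which may be technical.

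In oxidative phosphorylation, electrons from NADH enter at complex I and those from succinate at complex II, pass through ubiquinone to complex III and through cytochrome c to complex IV, and reduce oxygen. Complexes I, III and IV pump protons across the inner mitochondrial membrane, and complex V, the ATP synthase, uses their return to make ATP. Complex II is encoded wholly in the nucleus, whereas the other 4 complexes combine nuclear subunits with core subunits made inside the mitochondrion. Quiescent hematopoietic stem cells are known for relying largely on glycolysis, and mitochondrial respiration is known to rise when they are activated or differentiate.

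Total counts ranged from 12856630 to 30576981 per library, with the deepest library in the Tespa1+/+ group. The targeted gene was checked first. Tespa1 (chromosome 10) stood at 34.5, 32.7 and 36 CPM in the Tespa1+/+ libraries and 15.3, 14.3 and 14.2 CPM in the Tespa1-/- libraries, with no overlap between the groups (log2 fold change -1.23 ± 0.07 (SE), adjusted p = 7e-06), in the direction of the labels, although reads on Tespa1 remained in the null libraries. Of the LSK sort and stem cell markers, Kit, Cd34, Flt3, Slamf1, Procr, Cd48, Mecom and Hlf were lower in the Tespa1-/- libraries (Cd48 not without Tespa1-/- replicate 2, adjusted p = 0.0532), and the summed level of all 9 markers counted, with Ly6a, ranged from 1268 to 1297 CPM in Tespa1+/+ and from 729 to 748 CPM in Tespa1-/-. All 12 neutrophil and promyelocyte markers were higher, with a summed level of 10600 to 11350 CPM against 17600 to 18450 CPM. Gene by gene the rise was larger than in this sum, with a median log2 fold change of 4.02 (range 0.48 to 8.14). Of the other cell types the sort could hold, the summed levels were 195 to 205 CPM against 312 to 328 CPM for T and NK cell markers, 234 to 257 against 390 to 418 for erythroid, 498 to 538 against 635 to 722 for monocyte and macrophage, 50.1 to 55.0 against 37.6 to 41.2 for B cell and 107 to 113 against 66.6 to 71.2 for megakaryocyte markers. The numbers higher and lower among those tested were 1 and 2 of 4, 5 and 3 of 8, 2 and 2 of 6, 1 and 4 of 6, and 0 and 3 of 5, in the same order, and 1 B cell marker, Ms4a1, was at or under 3 counts in every library. Across all genes tested, 31.5% were higher and 31.8% were lower (edgeR, adjusted p under 0.05), and the monocyte and macrophage markers were near these shares. The summed level of each marker set differed between the genotypes, as the oxidative phosphorylation genes did. The part of these markers in the results below was not tested. In such bulk samples, a change in the mix of cells and a change in RNA per cell cannot be told apart.

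The clearest pattern was in the nuclear genes. Of 87 nuclear members, 82 passed the filter on low counts, and 75 of the 82 in the Tespa1-/- group passed an adjusted p under 0.05 as higher (edgeR quasi-likelihood test, Benjamini-Hochberg adjusted over 15332 genes), while 0 were lower. Across all genes tested, 31.5% were higher and 31.8% were lower at the same threshold. With a fold change over 1.5 required as well, 60 nuclear members were higher, against 14.0% of all genes tested that were higher and 19.2% that were lower. The median log2 fold change of the 82 was 0.71 and that of all genes tested was -0.0003. All 82 fold changes were positive, and in 77 the Tespa1-/- libraries all lay above the Tespa1+/+ libraries, a separation that 34.5% of all genes showed upward and 34.6% downward. Since no fold change was negative, 0 nuclear members were lower at an unadjusted p under 0.05 either, and DESeq2 called 73 higher and 0 lower.

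The 13 mitochondrially encoded genes did not share this pattern. At the same threshold 7 were higher, 3 were lower and 3 did not pass, with a median log2 fold change of 0.15. One gene, mt-Nd3, was higher by over 1.5-fold and one, mt-Nd4l, was lower by over 1.5-fold. Whether the nuclear and the mitochondrially encoded genes differ from each other was described by these counts and was not tested.

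**Figure D1:**
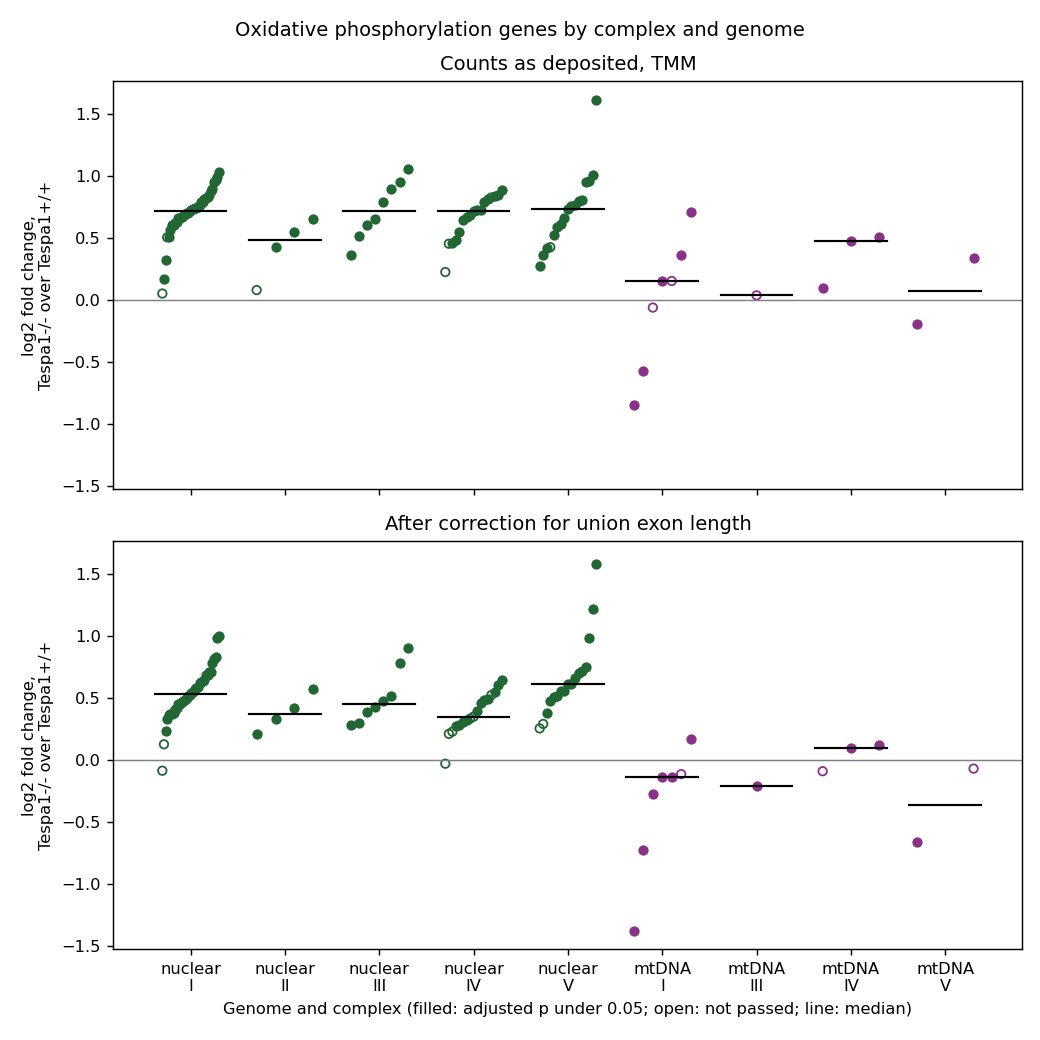
Log2 fold change (Tespa1-/- over Tespa1+/+) of the 95 tested members, by genome and complex, from the counts as deposited (top) and after a correction for union exon length (bottom). Filled points passed an adjusted p under 0.05, open points did not, and lines are medians. All nuclear points lie above 0 in the top panel, and the mitochondrially encoded points lie on both sides of 0 in both panels.

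Summed over genes, the nuclear members took 0.882%, 0.890% and 0.881% of the total count in the Tespa1+/+ libraries and 1.260%, 1.265% and 1.258% in the Tespa1-/- libraries. The groups were far apart relative to their spread, with means of 0.885% ± 0.00509 and 1.26% ± 0.00374 (SD, n = 3). The mitochondrially encoded members took 2.26%, 2.16% and 2.14% against 2.27%, 2.18% and 2.32%, and here the groups overlapped. The ratio of mitochondrially encoded to nuclear counts was therefore 2.56, 2.43 and 2.43 in the Tespa1+/+ libraries and 1.798, 1.725 and 1.843 in the Tespa1-/- libraries. The share of counts on the mitochondrially encoded members is given as a description, without a test. The direction for the mitochondrially encoded members depended on the unit. In FPKM, which scales counts by gene length and library total, they took 6.90% ± 0.141 of summed FPKM in Tespa1+/+ and 5.80% ± 0.173 in Tespa1-/- (SD, n = 3). The summed FPKM itself differed between the groups, from 350333 to 351987 in Tespa1+/+ and from 432222 to 433536 in Tespa1-/-.

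**Figure D2:**
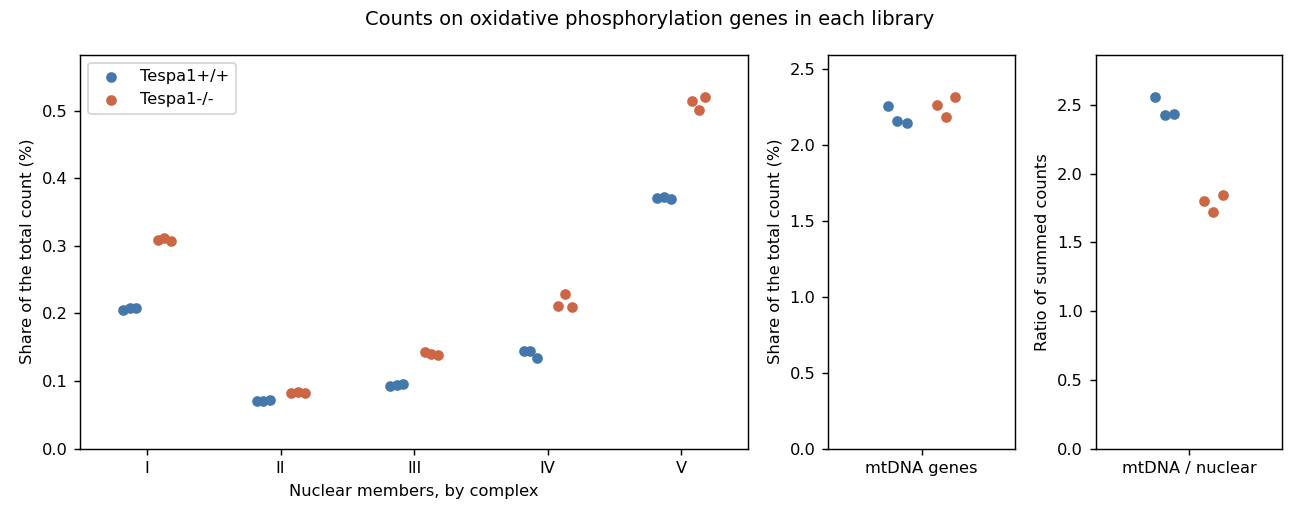
Share of each library's total count on the nuclear members of each complex (left) and on the mitochondrially encoded members (middle), and the ratio of the summed counts of the latter to the former (right). Each point is 1 library. For the nuclear members of every complex the 3 Tespa1-/- points lie above the 3 Tespa1+/+ points, the mitochondrially encoded shares overlap near 2.2%, and the ratio is lower in Tespa1-/-.

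Fold changes in these libraries were related to gene length, and the nuclear members are short: their median union exon length was 1560 bases (the 82 tested members), against 3664 bases for all genes tested with a length. Among the 82, the log2 fold change and the length had a Spearman correlation of -0.428. These points are genes that share the same 6 libraries, and the value is a description. The shortest 27 members (390 to 1131 bases) had a median log2 fold change of 0.80, the middle 27 (1153 to 2101 bases) of 0.67 and the longest 28 (2101 to 8086 bases) of 0.63. With a correction for this trend in all genes, 71 nuclear members were higher and 0 lower, 27 of them by over 1.5-fold, with a median of 0.51. Over all genes this correction called 36.3% higher and 22.2% lower, and 11.6% higher by over 1.5-fold, and it moved the median of all genes by 0.11. The correlation of the nuclear members with length was then 0.498, so their order by length turned around. The direction turned for 2 nuclear members that had not passed, Ndufb4 (-0.08) and Cox6b2 (-0.03).

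**Figure D3:**
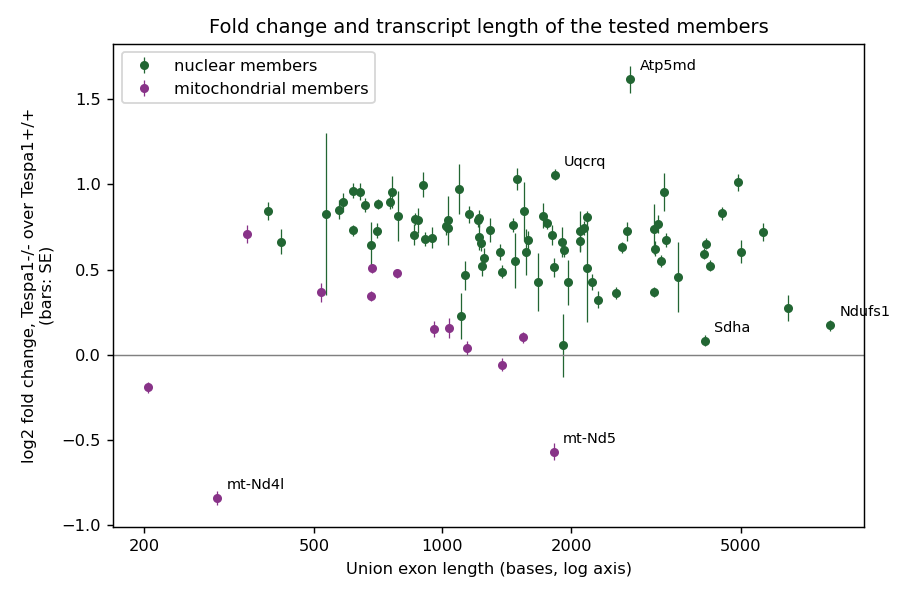
Log2 fold change of the 95 tested members (points, with SE bars) against union exon length in bases on a log axis. The nuclear members lie above 0 at all lengths, with Atp5md highest, and mt-Nd4l and mt-Nd5 are the lowest of the mitochondrially encoded members.

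The subunits of complex I, the NADH dehydrogenase, were the largest group. Of 36 nuclear members, 34 were higher and 2 did not pass, with a median log2 fold change of 0.72. The largest rise among them was in Ndufc1, an accessory subunit of the membrane arm, at 23.8, 23.7 and 20.9 CPM in the Tespa1+/+ libraries and 47.7, 46.1 and 46.2 CPM in the Tespa1-/- libraries, a log2 fold change of 1.03 ± 0.07 (SE), adjusted p = 1.31e-05. Ndufs6 and Ndufa11, also accessory subunits, followed with log2 fold changes of 0.998 ± 0.07 (SE) and 0.97 ± 0.15 (SE), although the Ndufa11 levels in Tespa1-/- ranged from 25.2 to 35.8 CPM. The smallest rise to pass among the nuclear members was in Ndufs1, the large iron-sulfur subunit that carries electrons through the matrix arm, at 112, 114 and 113 CPM in the Tespa1+/+ libraries and 128, 125 and 129 CPM in the Tespa1-/- libraries (log2 fold change 0.17 ± 0.03 (SE), adjusted p = 0.00265). Ndufs1 is also the longest of the 82, with 8086 bases of exon, and its corrected log2 fold change was 0.62. Without scaling factors it was 0.07 and did not pass (adjusted p = 0.0852). Ndufv1 and Ndufv2, which with Ndufs1 form the module that takes electrons from NADH, rose by 0.63 ± 0.03 (SE) and 0.74 ± 0.04 (SE) on the log2 scale. Among nuclear complex I members with a mean count of at least 100, the most abundant per length was Ndufa2, at 100.2 ± 5.22 FPKM in Tespa1+/+ and 169 ± 9.19 FPKM in Tespa1-/- (SD, n = 3).

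Complex II is the succinate dehydrogenase that also serves the TCA cycle, and its 4 members had the smallest median of the nuclear complexes, at 0.49. Sdhb, Sdhc and Sdhd were higher, with log2 fold changes of 0.43 ± 0.05 (SE), 0.55 ± 0.03 (SE) and 0.66 ± 0.05 (SE). Sdhd, a membrane anchor, stood at 139, 126 and 139 CPM in the Tespa1+/+ libraries and 218, 213 and 205 CPM in the Tespa1-/- libraries, and was also the most abundant of the 4 per length, at 113 ± 6.16 FPKM in Tespa1+/+ and 166 ± 5.03 FPKM in Tespa1-/- (SD, n = 3). Sdha, the flavoprotein that oxidises succinate, did not pass, at 336, 359.8 and 360.3 CPM in the Tespa1+/+ libraries and 369, 377 and 373 CPM in the Tespa1-/- libraries (log2 fold change 0.08 ± 0.03 (SE), adjusted p = 0.0687). The Sdha groups did not overlap but the lowest Tespa1-/- value was close to the highest Tespa1+/+ value. Without scaling factors its log2 fold change was -0.02, and with the length correction it was 0.22 and passed (adjusted p = 0.00112).

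All 8 nuclear members of complex III were higher, with a median log2 fold change of 0.72. Uqcrq, a small subunit next to cytochrome b, stood at 89.4, 91.4 and 91.5 CPM in the Tespa1+/+ libraries and 189, 191 and 187 CPM in the Tespa1-/- libraries, with no overlap between the groups (log2 fold change 1.06 ± 0.03 (SE), adjusted p = 1.04e-06). Uqcr11 and Uqcr10, both small subunits, rose by 0.96 ± 0.05 (SE) and 0.90 ± 0.06 (SE). Of the core proteins, Uqcrc1 rose by 0.65 ± 0.03 (SE) and Uqcrc2 by 0.36 ± 0.04 (SE), with Uqcrc2 at 178, 172 and 171 CPM in the Tespa1+/+ libraries and 232, 221 and 219 CPM in the Tespa1-/- libraries. Uqcrfs1, the Rieske iron-sulfur protein, was the most abundant nuclear member of complex III per length, at 92.7 ± 4.8 FPKM in Tespa1+/+ and 132 ± 3.44 FPKM in Tespa1-/- (SD, n = 3).

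Of the 21 nuclear members of complex IV, cytochrome c oxidase, 17 were tested, 14 were higher and 3 did not pass, with a median log2 fold change of 0.72. Cox6b1, which faces the intermembrane space, rose most of these, at 110.1, 113 and 109 CPM in the Tespa1+/+ libraries and 204, 207 and 204 CPM in the Tespa1-/- libraries (log2 fold change 0.89 ± 0.03 (SE), adjusted p = 1.42e-06). Cox8a was the most abundant nuclear member of complex IV per length, at 154 ± 2.02 FPKM in Tespa1+/+ and 238 ± 7.23 FPKM in Tespa1-/- (SD, n = 3), and rose by 0.73 ± 0.03 (SE). Cox7c rose least among the nuclear members of complex IV that passed, by 0.47 ± 0.09 (SE), and did not pass after the length correction (adjusted p = 0.0672). The spread was wide for Cox4i1, at 221, 209 and 186 CPM in the Tespa1+/+ libraries and 406, 432 and 266 CPM in the Tespa1-/- libraries (log2 fold change 0.84 ± 0.17 (SE), adjusted p = 0.00409), and for Cox6c, at 91.2, 75.7 and 77.2 CPM in the Tespa1+/+ libraries and 75.5, 129 and 131 CPM in the Tespa1-/- libraries. One Cox6c value in Tespa1-/-, that of replicate 1, lay just below the lowest of the 3 Tespa1+/+ values, and the gene did not pass (log2 fold change 0.46 ± 0.20 (SE), adjusted p = 0.0868). Without that library it was 0.68 and passed (adjusted p = 0.000901).

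Several complex IV subunits have a ubiquitous form and a form known from muscle, lung, testis or other tissues, and the level of the restricted form was low in every case. Cox4i2, known from lung and induced by low oxygen, stood at 2.15, 2.19 and 2.77 CPM in the Tespa1+/+ libraries and 4.4, 4.06 and 3.87 CPM in the Tespa1-/- libraries, against 186 to 432 CPM for Cox4i1, and rose by 0.82 ± 0.15 (SE) on the log2 scale. Cox6a2, the heart and muscle form of Cox6a1, stood at 2.64, 2.41 and 2.09 CPM in the Tespa1+/+ libraries and 3.52, 3.86 and 3.87 CPM in the Tespa1-/- libraries (log2 fold change 0.64 ± 0.14 (SE), adjusted p = 0.00495) and did not pass after the length correction (adjusted p = 0.24). Cox6a1 itself rose by 0.73 ± 0.04 (SE). Cox6b2, the testis form, did not pass, at 11.3, 12.3 and 12.9 CPM in the Tespa1+/+ libraries and 11.7, 14.6 and 16.7 CPM in the Tespa1-/- libraries (adjusted p = 0.184), and passed without Tespa1-/- replicate 1 (log2 fold change 0.36, adjusted p = 0.0258). Cox7a1, the heart and muscle form, did not exceed 1.05 CPM in any library (adjusted p = 0.167) and passed without Tespa1+/+ replicate 3 (log2 fold change 1.29, adjusted p = 0.0472), whereas Cox7a2 rose by 0.69 ± 0.06 (SE). Cox7b2, Cox8b and Cox8c had 0 counts in all 6 libraries, and Ndufa4l2 had 2 counts in 1 Tespa1+/+ library and 0 elsewhere. Ndufa4, its ubiquitous relative and a subunit of complex IV despite its name, rose by 0.49 ± 0.04 (SE). Cox7a2l, which has been linked to supercomplexes of complexes III and IV, rose by 0.55 ± 0.16 (SE), with 1 Tespa1+/+ library at 72.6 CPM against 114 CPM in the other 2. It did not pass without Tespa1-/- replicate 1 (adjusted p = 0.0552) or after the length correction (adjusted p = 0.103).

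Of the 18 nuclear members of complex V, 17 were tested, 16 were higher and 1 did not pass, with a median log2 fold change of 0.74. Atp5md, the small membrane subunit also called DAPIT, rose most of all members, at 18.3, 16.7 and 15 CPM in the Tespa1+/+ libraries and 51.7, 50.8 and 51.1 CPM in the Tespa1-/- libraries (log2 fold change 1.62 ± 0.08 (SE), adjusted p = 4.1e-06). After the length correction its log2 fold change was 1.58. Atp5b, the catalytic beta subunit, was the most abundant nuclear member of complex V per length, at 187 ± 4.57 FPKM in Tespa1+/+ and 251 ± 7.24 FPKM in Tespa1-/- (SD, n = 3), and rose by 0.52 ± 0.03 (SE). Atp5a1, the alpha subunit, rose by 0.37 ± 0.03 (SE), and Atp5j2, the f subunit, by 0.96 ± 0.11 (SE). Atp5o (ENSMUSG00000022956), which joins the peripheral stalk to the catalytic head, rose by 0.42 ± 0.13 (SE) but did not pass when any 1 of 5 of the 6 libraries was left out (adjusted p = 0.0517 to 0.0767). A second row named Atp5o had 0 counts in every library. Atp5l, the g subunit, rose least of the 16, by 0.28 ± 0.08 (SE), and did not pass without scaling factors (adjusted p = 0.086).

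Subunit c, which forms the rotating ring, is encoded by 3 genes that differ in their import sequences. The last 99 coding bases of each are shown because near-identical pseudogenes carry the same letters and hold counts of their own. They were read 5′ to 3′ from the GENCODE M21 transcripts (GRCm38, all on the minus strand), with capitals marking bases that differ from Atp5g1. The same window is given for Gm10039 and Gm10175, which are annotated as pseudogenes and are near-identical to Atp5g1 and Atp5g2.
Atp5g1, chr11:96073104-96073202: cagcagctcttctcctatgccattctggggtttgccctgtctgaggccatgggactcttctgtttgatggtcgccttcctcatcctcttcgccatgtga
Gm10039, chr11:100361716-100361814: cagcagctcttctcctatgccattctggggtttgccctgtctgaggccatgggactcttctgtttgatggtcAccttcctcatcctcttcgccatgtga
Atp5g2, chr15:102663014-102663112: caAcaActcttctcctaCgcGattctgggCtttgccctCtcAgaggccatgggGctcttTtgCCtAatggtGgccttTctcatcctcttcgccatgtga
Gm10175, chr7:23946792-23946890: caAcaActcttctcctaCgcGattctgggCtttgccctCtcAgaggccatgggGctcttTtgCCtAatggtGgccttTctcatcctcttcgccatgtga
Atp5g3, chr2:73908593-73908691: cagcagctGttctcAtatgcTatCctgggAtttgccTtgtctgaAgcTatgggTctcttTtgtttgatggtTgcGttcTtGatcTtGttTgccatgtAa

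Within these 99 bases Gm10175 did not differ from Atp5g2, Gm10039 differed from Atp5g1 at 1 position, and Atp5g2 and Atp5g3 differed from Atp5g1 at 14 and 18 positions. The row of Atp5g2 held only 50, 63 and 34 counts in the Tespa1+/+ libraries and 59, 43 and 36 in the Tespa1-/- libraries and did not pass (log2 fold change 0.43 ± 0.17 (SE), adjusted p = 0.0622). It passed without Tespa1+/+ replicate 1 (log2 fold change 0.56, adjusted p = 0.03). The row of Gm10175 held 4352, 7583 and 3413 counts and 5994, 5244 and 4295 counts in the same libraries. Together, Atp5g2 and its near-identical pseudogenes, which held 99.1% of the summed counts, were higher in Tespa1-/- (log2 fold change 0.58 ± 0.03 (SE), adjusted p = 6.11e-06). The row of Atp5g1 was higher, at 29.5, 28.3 and 27.8 CPM in the Tespa1+/+ libraries and 57.2, 58.4 and 57.1 CPM in the Tespa1-/- libraries (log2 fold change 1.01 ± 0.05 (SE), adjusted p = 3.86e-06), and with Gm10039, which held 77.4% of the counts, the value was 0.80 ± 0.04 (SE), adjusted p = 3.17e-06. Atp5g3, for which no near-identical copy was found, stood at 225, 236 and 225 CPM in the Tespa1+/+ libraries and 407, 408 and 389 CPM in the Tespa1-/- libraries (log2 fold change 0.81 ± 0.03 (SE), adjusted p = 2.47e-06). Which locus the reads came from was not tested.

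**Figure D4:**
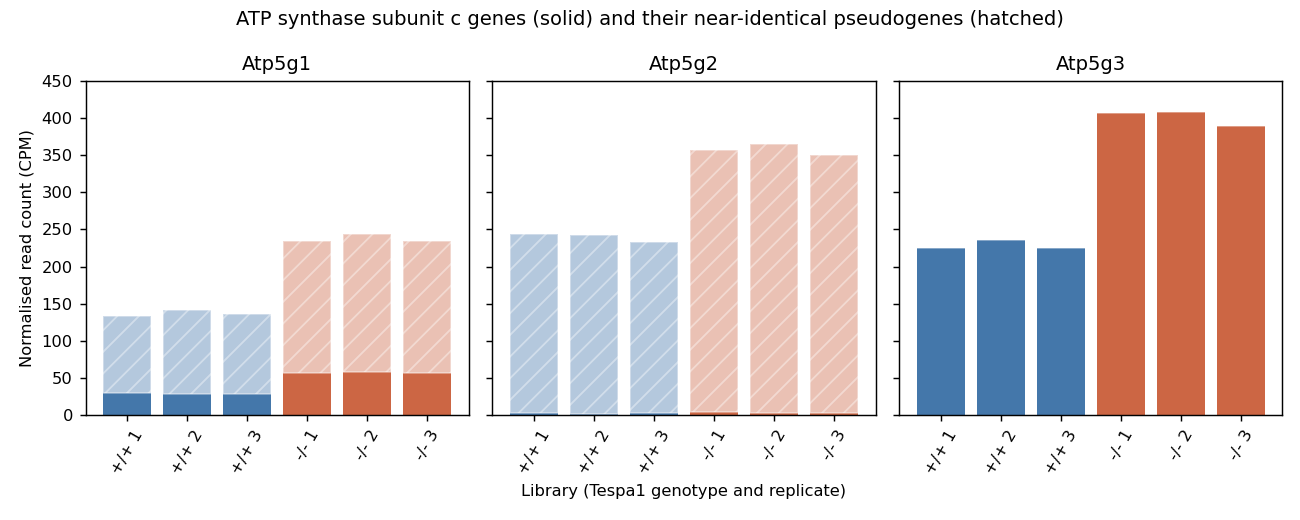
Normalised read count (CPM) of the 3 ATP synthase subunit c genes in each library (solid), with the counts of their near-identical pseudogenes stacked on top (hatched). Nearly all of the Atp5g2 bar is hatched, and the 3 Tespa1-/- bars are taller than the 3 Tespa1+/+ bars for each gene.

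Other members also had near-identical copies whose rows held counts, and which locus those reads came from was not tested either. A search of the annotated pseudogenes for at least 95% identity over at least 200 bases found 47 copies of 29 members. Members themselves, Cox5b-ps among them, were not searched as possible copies. Copies held 93.2% of the summed counts for Ndufs3, 86.3% for Atp5l, 79.2% for Ndufb4 and 54.2% for Atp5h. Ndufs3, a core subunit of the matrix arm of complex I, and Ndufb4, an accessory subunit, were the 2 nuclear complex I members that did not pass alone (adjusted p = 0.199 and 0.893). With their copies added, the log2 fold changes were 0.89 ± 0.13 (SE), adjusted p = 0.000797 for Ndufs3 and 0.73 ± 0.12 (SE), adjusted p = 0.00119 for Ndufb4. For Atp5l the value rose to 0.80 ± 0.03 (SE), adjusted p = 2.04e-06. In all, 78 of the 82 tested nuclear members were higher and 0 lower when copies were added, an alternative chosen after the data were seen. Ndufb6, Ndufa13 and Atp5j share 39.0%, 30.0% and 12.7% of their exon bases with Smim27, Tssk6 and Gabpa on the opposite strand, and whether counting used strand is not given. Of the 15 pseudogene rows that carry a member's name, 10 were tested, and all 10 were higher. Across all genes tested, 31.5% were higher and 31.8% were lower.

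Genes transcribed from mitochondrial DNA are cut from long shared precursors, mostly at the tRNAs between them, so their levels reflect processing and stability as well as transcription. The libraries were made from polyadenylated RNA. The part of this selection in the levels of mitochondrial rows, rRNA and tRNA rows included, was not tested. Per length the most abundant was mt-Co1, the catalytic subunit of complex IV, at 4921 ± 154 FPKM in Tespa1+/+ and 4923 ± 151 FPKM in Tespa1-/- (SD, n = 3). The least abundant was mt-Nd6, the sole protein-coding gene on the opposite strand, at 90.5 ± 3.82 FPKM in Tespa1+/+ and 109 ± 4.95 FPKM in Tespa1-/- (SD, n = 3).

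The fall was largest in mt-Nd4l, a small membrane subunit of complex I, at 381, 355 and 369 CPM in the Tespa1+/+ libraries and 205, 198 and 214 CPM in the Tespa1-/- libraries (log2 fold change -0.84 ± 0.04 (SE), adjusted p = 4.36e-06). mt-Nd5, the largest membrane subunit of complex I, was also lower, at 1547, 1422 and 1405 CPM in the Tespa1+/+ libraries and 1029, 931 and 986 CPM in the Tespa1-/- libraries (log2 fold change -0.57 ± 0.05 (SE), adjusted p = 5.33e-05). The groups did not overlap for either gene, and both kept their direction under every alternative listed in the closing section. mt-Atp8, a small subunit of complex V, was lower by less, at 666, 655 and 662 CPM in the Tespa1+/+ libraries and 558, 574 and 603 CPM in the Tespa1-/- libraries (log2 fold change -0.19 ± 0.03 (SE), adjusted p = 0.00159). Both mt-Nd4l and mt-Atp8 overlap a longer neighbour on the same strand, and the values of each pair are set side by side below.

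The rise was largest in mt-Nd3, another complex I subunit, at 108, 98.2 and 97.3 CPM in the Tespa1+/+ libraries and 166, 160.1 and 169.8 CPM in the Tespa1-/- libraries (log2 fold change 0.71 ± 0.05 (SE), adjusted p = 2.19e-05). mt-Co2, a core subunit of complex IV that takes electrons from cytochrome c, was at 2131, 2141 and 2103 CPM in the Tespa1+/+ libraries and 2948, 2987 and 3129 CPM in the Tespa1-/- libraries (log2 fold change 0.51 ± 0.03 (SE)). mt-Co3, another core subunit, was at 1668, 1683 and 1637 CPM in the Tespa1+/+ libraries and 2300.0, 2261 and 2391 CPM in the Tespa1-/- libraries (log2 fold change 0.48 ± 0.03 (SE)). The groups overlapped for none of these 3 genes. They stayed higher after the length correction, with log2 fold changes of 0.17, 0.10 and 0.12, much smaller than before it. mt-Atp6, the proton channel of complex V, and mt-Nd6 were higher as deposited, with log2 fold changes of 0.34 ± 0.03 (SE) and 0.37 ± 0.06 (SE), but turned to -0.07 and -0.14 after the correction. mt-Nd6 was then lower (adjusted p = 0.0407).

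The remaining 5 genes differed little. mt-Co1 was at 7607, 7250.0 and 7203 CPM in the Tespa1+/+ libraries and 7983, 7602 and 8073 CPM in the Tespa1-/- libraries, and its rise of 0.10 ± 0.03 (SE) passed (adjusted p = 0.0231) although the groups overlapped by a narrow margin. It turned to -0.09 after the length correction and was 0.00 without scaling factors. mt-Nd1 also passed as deposited (log2 fold change 0.15 ± 0.05 (SE), adjusted p = 0.0258) and turned to -0.13 after the correction. Neither passed without Tespa1+/+ replicate 2, Tespa1+/+ replicate 3, Tespa1-/- replicate 1 or Tespa1-/- replicate 3 (adjusted p = 0.0509 to 0.0712). mt-Nd2 did not pass (0.16 ± 0.06 (SE), adjusted p = 0.0558), but passed without Tespa1+/+ replicate 1 or Tespa1-/- replicate 2 (adjusted p = 0.00939 and 0.024), and turned to -0.11 after the correction. mt-Nd4 and mt-Cytb did not pass, with log2 fold changes of -0.06 ± 0.04 (SE) and 0.04 ± 0.04 (SE), and were at -0.27 and -0.21 after the correction. In all, the length correction left 3 mitochondrially encoded genes higher and 7 lower, with a median of -0.13.

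**Figure D5:**
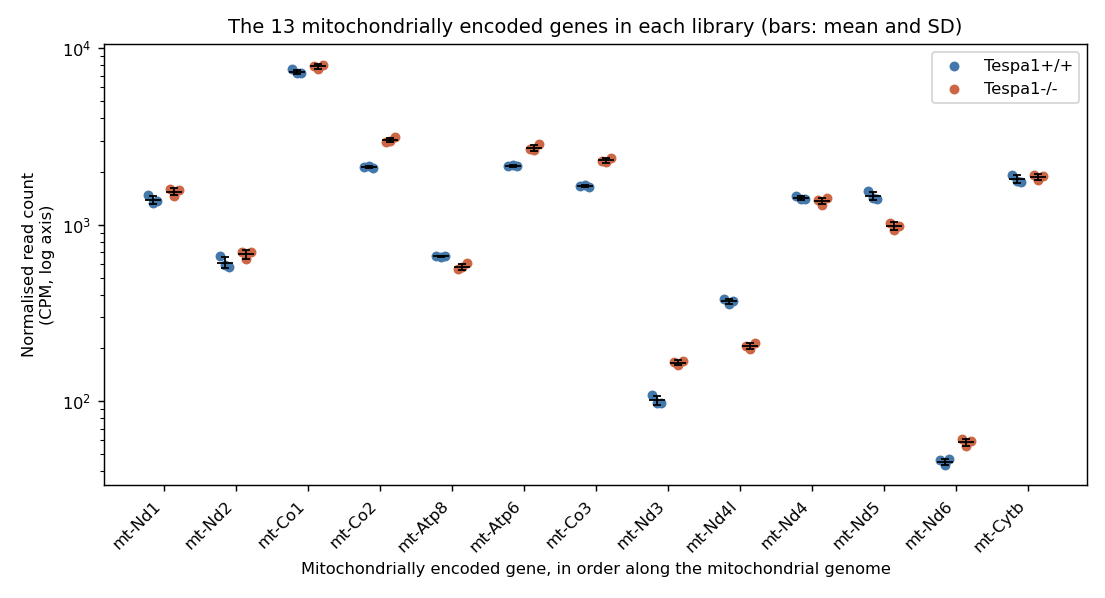
Normalised read count (CPM, log axis) of the 13 mitochondrially encoded genes in each library, in order along the mitochondrial genome, with bars for the mean and SD of each group. The Tespa1-/- points lie below the Tespa1+/+ points for mt-Atp8, mt-Nd4l and mt-Nd5 and above them for mt-Co2, mt-Atp6, mt-Co3, mt-Nd3 and mt-Nd6.

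Neighbouring mitochondrial genes that overlap are shown next because their values differed. mt-Atp8 and mt-Atp6 overlap by 43 bases (chrM:7927-7969, GRCm38, plus strand), and the junction is shown with the shared bases in capitals, from the start codon of mt-Atp6 to the last base of mt-Atp8.
mt-Atp8 and mt-Atp6, chrM:7912-7984: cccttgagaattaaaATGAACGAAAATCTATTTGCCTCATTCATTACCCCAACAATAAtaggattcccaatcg
mt-Nd4l and mt-Nd4 overlap by 7 bases, shown likewise.
mt-Nd4l and mt-Nd4, chrM:10152-10188: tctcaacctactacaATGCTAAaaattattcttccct

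Within the first pair the log2 fold change was -0.19 for mt-Atp8 (204 bases) and 0.34 for mt-Atp6 (681 bases), and within the second it was -0.84 for mt-Nd4l (297 bases) and -0.06 for mt-Nd4 (1378 bases). In each pair the shorter gene had the lower value, also after the length correction (-0.66 and -0.07, -1.37 and -0.27). The genes of each pair overlap on the same strand, so no tRNA lies between them. Whether the rows of a pair count separate transcripts was not tested, nor was the difference within a pair. Rows annotated as nuclear copies of mitochondrial genes also held counts. Gm10925 is identical to mt-Atp6 over 678 bases and Gm10222 to mt-Nd4l over 294 bases. Their rows held 17.6% and 15.8% of the respective sums. The Gm10925 share was highest in replicate 1 of both groups, at 22.38%, 14.55% and 15.48% in Tespa1+/+ and 21.76%, 15.35% and 15.9% in Tespa1-/-. With such copies added, 7 mitochondrially encoded genes were higher and 3 lower. Both mitochondrial rRNAs, which are not members, were higher, mt-Rnr1 by 0.43 ± 0.04 (SE) and mt-Rnr2 by 0.41 ± 0.04 (SE). Of the 22 mitochondrial tRNA rows, 8 were tested, 4 were higher and 0 lower, against 31.5% higher and 31.8% lower across all genes tested.

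The other genes of the pathway were counted from lists of assembly factors, carriers and regulators. For comparison with every list in this and the next paragraph, 31.5% of all genes tested were higher and 31.8% were lower. Of the assembly factors tested, 13 of 17 were higher for complex I, 4 of 4 for complex II, 3 of 6 for complex III, 19 of 23 for complex IV and 2 of 3 for complex V, and 1, the heme A synthase Cox15, was lower (-0.17 ± 0.05 (SE)) but turned to 0.04 after the length correction. Cox15 did not pass without Tespa1+/+ replicate 2 or any 1 of the Tespa1-/- libraries (adjusted p = 0.065 to 0.098). Sco2, which delivers copper to complex IV, was at 7.93, 6.27 and 7.69 CPM in the Tespa1+/+ libraries and 30.4, 12.5 and 15.4 CPM in the Tespa1-/- libraries (log2 fold change 1.43 ± 0.33 (SE)). Its highest value was in Tespa1-/- replicate 1, and without that library the log2 fold change was 0.95 (adjusted p = 0.00243). Cytochrome c (Cycs), cytochrome c1 (Cyc1) and the acyl carrier subunit of complex I (Ndufab1), which the naming rule leaves out, rose by 0.71 ± 0.09 (SE), 0.67 ± 0.07 (SE) and 0.63 ± 0.10 (SE). Of 18 TCA cycle genes, 14 were higher and 3 were lower. Mdh2, malate dehydrogenase, rose by 0.63 ± 0.05 (SE) and Cs, citrate synthase, by 0.18 ± 0.03 (SE), whereas Ogdh and Dlst, parts of the 2-oxoglutarate dehydrogenase, were at -0.35 ± 0.03 (SE) and -0.19 ± 0.06 (SE) and Pcx, pyruvate carboxylase, at -0.66 ± 0.11 (SE). Ogdh fell by less after the length correction (-0.09) and Dlst turned to 0.34. Dlst did not pass without Tespa1+/+ replicate 2, Tespa1+/+ replicate 3, Tespa1-/- replicate 1 or Tespa1-/- replicate 3 (adjusted p = 0.0611 to 0.0996). Of 7 tested genes for exchange and uncoupling across mitochondrial membranes, 6 were higher, among them the ADP/ATP carriers Slc25a4 (0.55 ± 0.04 (SE)) and Slc25a5 (0.58 ± 0.02 (SE)).

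Of 29 tested genes that replicate, transcribe or process the mitochondrial genome, 14 were higher, 1 was lower and 14 did not pass, with a median log2 fold change of 0.20. Tfam, which packages mitochondrial DNA and starts its transcription, rose by 0.33 ± 0.08 (SE), the polymerase Polrmt was at 0.06 ± 0.06 (SE) and did not pass, with 0.24 after the length correction and -0.04 without scaling factors, and Polg, the replicative DNA polymerase, was lower at -0.33 ± 0.07 (SE) and turned to 0.24 after the length correction. Of 11 tested nuclear regulators of mitochondrial genes, 1 was higher, 4 were lower and 6 did not pass, which for the lower ones is near the share over all genes. The lower ones were the GABP subunits Gabpa (-0.21 ± 0.04 (SE)), Gabpb1 (-0.36 ± 0.06 (SE)) and Gabpb2 (-0.73 ± 0.04 (SE)) and Yy1 (-0.17 ± 0.03 (SE)), but after the length correction none of these 4 was lower, with values between 0.00 (Gabpb2) and 0.16 (Yy1), and Yy1 was then higher. The mRNA of Myc was at 0.10 ± 0.11 (SE), adjusted p = 0.427 (0.24 and adjusted p = 0.0308 without Tespa1+/+ replicate 3), and that of Nrf1 at -0.01 ± 0.10 (SE), adjusted p = 0.968, which became 0.55 after the length correction (adjusted p = 0.00359).

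The promoters of the nuclear members were searched for the letters bound by such regulators, since these genes moved together. RefSeq promoters (GRCm38.p6, 250 bases before to 50 after each start) were found for 67 of the 87 nuclear members, 72 promoters in all. On either strand, CCGGAAG, a core of ETS factors including GABP, was in 23.6% of them and in 8.86% of all 32851 promoters. AAGATGGC, a YY1 motif, was in 13.9% and 2.75%, the NRF1 motif, GCGCA followed by its reverse complement, in 6.94% and 0.971%, and CACGTG, the E-box bound by MYC and others, in 9.72% and 7.15%. These shares describe letters, with no test, and do not show binding. The promoters of the member with the largest rise in each of complexes I, II, IV and V are shown in transcript direction, with matches to these 4 motifs in capitals.
Ndufc1, chr3:51408906-51409205, minus strand: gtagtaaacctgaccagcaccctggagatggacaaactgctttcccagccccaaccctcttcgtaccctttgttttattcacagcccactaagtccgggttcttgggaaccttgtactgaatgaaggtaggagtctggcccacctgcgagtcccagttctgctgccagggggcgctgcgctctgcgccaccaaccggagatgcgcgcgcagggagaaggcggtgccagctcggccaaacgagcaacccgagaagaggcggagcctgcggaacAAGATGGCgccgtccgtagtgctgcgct
Sdhd, chr9:50603800-50604099, minus strand: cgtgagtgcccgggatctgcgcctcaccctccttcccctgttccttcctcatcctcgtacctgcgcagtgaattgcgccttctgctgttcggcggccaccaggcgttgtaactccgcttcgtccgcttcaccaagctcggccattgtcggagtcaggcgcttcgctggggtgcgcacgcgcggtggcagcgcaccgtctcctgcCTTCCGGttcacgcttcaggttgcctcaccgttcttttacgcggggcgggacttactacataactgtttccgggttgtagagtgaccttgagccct
Cox6b1, chr7:30626065-30626364, minus strand: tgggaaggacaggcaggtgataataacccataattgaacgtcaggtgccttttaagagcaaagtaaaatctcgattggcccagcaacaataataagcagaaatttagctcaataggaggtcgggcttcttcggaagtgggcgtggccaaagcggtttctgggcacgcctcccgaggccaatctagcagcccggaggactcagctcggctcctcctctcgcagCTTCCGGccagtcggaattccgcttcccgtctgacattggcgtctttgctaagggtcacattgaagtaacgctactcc
Atp5md, chr19:47090598-47090897, minus strand: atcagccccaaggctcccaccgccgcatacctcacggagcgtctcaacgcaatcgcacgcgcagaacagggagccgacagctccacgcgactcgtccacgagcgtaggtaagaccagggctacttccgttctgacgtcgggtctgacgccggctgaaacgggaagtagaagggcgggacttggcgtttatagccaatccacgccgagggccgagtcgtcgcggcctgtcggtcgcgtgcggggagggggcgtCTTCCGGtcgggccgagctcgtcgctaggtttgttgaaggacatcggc

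Ndufc1 holds a YY1 match close to the transcript start, and Sdhd, Cox6b1 and Atp5md each hold 1 ETS match. The fold changes of the 17 members with an ETS match ranged from 0.28 (Atp5l) to 1.62 (Atp5md) on the log2 scale.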

How the data were processed

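Polyadenylated RNA of 6 samples was sequenced as stranded paired-end libraries, per the labels. The authors deposited 1 table with raw counts and FPKM values per gene. The submitters' processing notes name CASAVA 1.8, HISAT2, StringTie, edgeR and GRCm38; whether counting used strand or kept reads with several matches is not given in the sources used here. The FPKM values deposited are counts scaled by library total and a fixed length per gene.

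Counts were filtered (filterByExpr), scaled by TMM and tested with edgeR 4.0.16 in R 4.3.3, without covariates, adjusting over 15332 genes. CPM uses TMM-scaled totals. The SE of a log2 fold change is its size divided by the root of the test's F. Alternatives used RLE, total counts, other filters, DESeq2 1.42.0, limma 3.58.1 on FPKM, a replicate block, leaving out 1 library, and a loess length correction (span 0.5) on union exon lengths of GENCODE M21 or the length implied by FPKM. Near-identical pseudogenes were found with blastn. The steps were tested on simulated data with 200 changed genes, called at an adjusted p under 0.05 and over 1.5-fold. Without a length trend, edgeR recovered 99.0% with 3 false calls. When a length trend was put into the simulated counts, uncorrected edgeR recovered 85.5% with 1954 false calls. With the length correction it recovered 99.5% with 2 false calls. The main test is the uncorrected one. The SE and SD values reflect the spread between these libraries, which may be technical, and floors (3 counts) cover counting error only. The members, lists and tests were chosen with earlier results of these data known. One LSK marker of the lists is not reported here. Full values are given for the mitochondrially encoded genes, the largest and smallest change and the most abundant gene of each complex (mean count of at least 100), tissue isoforms, subunit c genes and list genes; the others were named after their values were seen.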

Additional observations from a re-analysis of the deposited data

How the results depend on the processing

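The count of nuclear members higher stayed between 71 and 78 and that of nuclear members lower at 0 under every alternative, and 68 nuclear members were higher in the main test and under each alternative other than the one added after seeing the data. The calls on mitochondrially encoded members were less stable. They were 3 higher with 7 lower after the length correction and 3 higher with 6 lower after the correction for the implied length, and without 1 library 5 to 8 were higher and 3 lower. Over all genes tested, deviations of same-numbered samples from their group means correlated at 0.0459, 0.0107 and 0.0595. The replicate numbers were therefore not taken to pair the samples. Replicate 1 nonetheless had the highest share of the total count on near-identical pseudogenes of mitochondrially encoded members in both groups. These shares were 0.261%, 0.160% and 0.170% in Tespa1+/+ and 0.299%, 0.197% and 0.219% in Tespa1-/-, and the reason was not tested. With the replicate number as a block, 75 nuclear and 8 mitochondrially encoded members were higher, so the block added mt-Nd2 and changed no other call.

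Members higher by over 1.5-fold numbered 38 by limma on log2(FPKM + 1) and 27 after the length correction, and 59 to 63 without 1 library. Members lower by over 1.5-fold numbered 2 on total counts, with at least 10 counts in every sample and by limma with either pseudocount, and 3 after either length correction. They numbered 1 to 2 without 1 library, the second being mt-Nd5 without Tespa1+/+ replicate 3 or Tespa1-/- replicate 1. On total counts the median of all genes was -0.10.

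The median log2 fold change of nuclear members was 0.61 on total counts, 0.68 with at least 10 counts in every sample, 0.57 and 0.61 by limma (pseudocounts 1 and 0.1), 0.51 and 0.62 after the corrections for union and implied length, 0.73 with near-identical pseudogenes added (chosen after seeing the data) and 0.70 to 0.72 without 1 library. That of mitochondrially encoded members was 0.0517 on total counts, 0.0525 and 0.0526 by limma, -0.13 and -0.10 after the corrections for union and implied length, and 0.13 to 0.20 without 1 library. The share of counts on mitochondrially encoded members was 2.44% (Tespa1+/+) and 2.61% (Tespa1-/-) of protein-coding counts, 6.90% and 5.80% of summed FPKM, and 2.15% to 2.21% and 2.23% to 2.29% without 1 library.

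Directions turned, after the corrections for union and implied length, for mt-Nd1 (-0.13 and -0.12), mt-Nd2 (-0.11 and -0.0878), mt-Nd6 (-0.14 and -0.10), mt-Co1 (-0.0879 and -0.0323), mt-Atp6 (-0.0669 and -0.05), mt-Cytb (-0.21 and -0.17) and Ndufb4 (-0.0838 and -0.0104), and after the first for Cox6b2 (-0.0271). On total counts and by limma (pseudocounts 1 and 0.1) they turned for mt-Cytb (-0.0610, -0.0600 and -0.0600), Sdha (-0.0183, -0.0168 and -0.0170) and Ndufb4 (-0.0458, -0.0161 and -0.0279). Ndufb4 ranged from -0.0414 (without Tespa1+/+ replicate 1) to 0.229 (without Tespa1+/+ replicate 2) when 1 library was left out, and was -0.0196 without Tespa1-/- replicate 1. The cause was not tested. Mean counts were 20.2 for Ndufs3, 47.2 for Ndufb4, 47.5 for Atp5g2 and 9.67 for Cox7a1, which did not pass, and 55.2 for Cox4i2 and 53.2 for Cox6a2, which passed.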
